A study of Mus musculus with 5 samples.

Results

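The STAT transcription factor genes described here are Stat2, Stat3, Stat4, Stat5a, Stat5b and Stat6, 6 of the 14154 protein-coding genes that the files place on the mouse genome (build mm9). A region of enrichment belonged to one of them when the authors' gene column named that gene, or when the region lay within 5 kb of its listed transcription start. That gave 33 of the 60037 regions in 4 lists: for STAT3, 2 of 3507 in diluent and 4 of 8552 in SAHA, and for H3K4me3, 13 of 22255 and 14 of 25723.

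The data are chromatin immunoprecipitation sequencing (ChIP-seq) of dendritic cells grown from the bone marrow of C57BL/6 female mice aged 10 weeks. The marrow was kept for 7 days in GM-CSF and IL-4, each at 10 ng/mL, and CD11c-positive cells were then selected to 95% purity, so every library comes from cells exposed to both cytokines. The cells received diluent or SAHA (vorinostat, an inhibitor of histone deacetylases; the label gives 500 nm) for 12 hours, and 1 library was made with an antibody to STAT3 and 1 with an antibody to H3K4me3 under each treatment, beside 1 with nonspecific IgG from diluent cells. No replicate library exists for any group, and no IgG library from SAHA-treated cells was used here, so every difference between SAHA and diluent below is a difference between 2 libraries.

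STAT proteins carry cytokine signals from the cell surface to the nucleus. A receptor-bound Janus kinase (JAK) phosphorylates them on tyrosine, they pair through their SH2 domains, and the pairs enter the nucleus and bind short palindromic DNA sites. In dendritic cells GM-CSF signals mainly through the STAT5 proteins, IL-4 through STAT6, IL-12 through STAT4, type I interferon through complexes that hold STAT2, and IL-6 and IL-10 through STAT3. Transcription of Stat3 by STAT3 itself is a well known feedback. H3K4me3, trimethylation of lysine 4 on histone H3, marks the starts of active genes.

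Of the genes, Stat3 alone had a STAT3 region at its start, and Stat2 alone had a STAT motif in its promoter window. The promoter sequences of this pair are shown for reference, and no region call or tag count below rests on them. Both are the 250 bases before the RefSeq start on build GRCm38.p6, Stat2 from chr10:128270248-128270497 on the plus strand and Stat3 from chr11:100939541-100939790 on the minus strand, and capitals mark a motif match.
Stat2: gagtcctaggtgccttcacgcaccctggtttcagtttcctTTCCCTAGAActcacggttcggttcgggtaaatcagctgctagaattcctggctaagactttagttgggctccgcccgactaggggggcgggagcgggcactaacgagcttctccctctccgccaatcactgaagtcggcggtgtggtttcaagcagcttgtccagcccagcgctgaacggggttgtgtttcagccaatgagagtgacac
Stat3: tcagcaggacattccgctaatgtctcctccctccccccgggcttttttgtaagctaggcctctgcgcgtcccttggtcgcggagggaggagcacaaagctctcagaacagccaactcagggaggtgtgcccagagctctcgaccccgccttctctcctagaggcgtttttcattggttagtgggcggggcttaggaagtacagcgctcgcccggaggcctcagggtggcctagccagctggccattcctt

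The motifs searched were the palindrome TTCNNNGAA, the same with a spacer of 4 bases, and the narrower TTCCNGGAA, whose matches also match the first; each reads alike on both strands. The window ran from 250 bases before to 50 after each RefSeq start, and 9 windows matched the 6 genes by symbol. Of 32851 mouse promoter windows of that length, 8.30% held the first motif, 6.95% the one with a spacer of 4, and 1.15% the narrow one. Among the 9 windows of the STAT genes, only Stat2 held a match, TTCCCTAGAA with a spacer of 4, beginning 210 bases before the start. The first motif or the one with a spacer of 4 occurred in 14.6% of all windows, so 1 of 9 was not above that share. The Stat3 window held none, which says only that these letters are absent from those bases. The STAT3 summits described next lay 264 and 311 bp upstream of the start listed on mm9, farther out than the 250 bases printed, and positions were not converted between the builds.

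A second pair of sequences compares promoter windows of the neighbouring paralogs Stat5a and Stat5b. Among 33 pairs of upstream windows from different genes of the set, the longest shared run of bases on the sense strand was 16, between Stat5a and the inner (short) start of Stat5b, and the next longest was 11. The run is in capitals in the last 80 bases before each start, from chr11:100860404-100860483 on the plus strand for Stat5a and chr11:100822571-100822650 on the minus strand for Stat5b (GRCm38.p6).
Stat5a: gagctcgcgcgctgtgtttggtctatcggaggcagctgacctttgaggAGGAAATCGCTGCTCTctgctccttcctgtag
Stat5b: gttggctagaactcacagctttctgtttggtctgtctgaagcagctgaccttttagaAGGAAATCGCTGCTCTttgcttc
Of the 32851 promoter windows, 2 held that run in the upstream bases, the pair printed here. This comparison was chosen after the sequences were seen. Because the run was taken from this pair, its count over all windows does not test how the promoters are related.

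Libraries held between 19504014 and 27920130 reads of 38 bases, and between 17810183 and 25013431 tags after the authors' filter on duplicates. The IgG library stood apart in that 77.9% of its reads were aligned, against 97.4% to 98.6% in the other 4. With the fewest tags, the STAT3 library from SAHA-treated cells nevertheless had the longer STAT3 list, 8552 regions against 3507, while its regions called without a control numbered 784 against 844. A count of STAT3 regions in SAHA is therefore read below against the count over all genes. Markers of the labelled cell type carried H3K4me3 within 5 kb of the start at 9 of 9 dendritic cell genes in both conditions. Such regions were also called at 4 of 4 scored macrophage, 3 of 3 granulocyte, 2 of 2 T cell and 1 of 1 erythroid marker genes in both conditions. The marker lists held 5, 5, 4 and 3 genes, respectively. A gene was scored only if at least 1 of the 4 lists names it. Genes without any listed region are therefore left out of every count and share of scored genes. Among 3 scored of 4 B cell marker genes, H3K4me3 regions were called near 1 in diluent and 0 in SAHA. Over all scored genes the share was 84.2% in diluent and 85.2% in SAHA, so these counts say little about cell identity. Some of the markers with a H3K4me3 promoter region in both libraries differed in tags by more than any STAT gene did. The 3 granulocyte markers were all higher in SAHA, with a median log2 tag ratio, SAHA over diluent, of 0.65. Elane, the neutrophil elastase gene, was highest at 2.11 (33 and 136 tags). S100a8 was lowest at 0.26 (78 and 89 tags), with an interval for counting error of -0.20 to 0.71 that held 0. All 3 held few tags, between 33 and 127 in diluent. The T cell markers stood at 0.35 (Lck) and -0.07 (Cd3d), and the erythroid marker Klf1 at 0.18. The 6 dendritic cell markers ran from -0.56 at Flt3 to 1.18 at Ciita with a median of 0.21, and the 4 macrophage markers from -0.65 at Mertk to 0.43 at Lyz2 with a median of -0.10. The part of other cell types in the results was not tested.

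A STAT3 region lay over the start of Stat3 itself in both conditions, and at none of the other 5 genes was a STAT3 region called within 5 kb of the start. In diluent, Stat3 alone of the 6 genes had a STAT3 region by the gene column or the 5 kb window, where 17.1% of all scored genes did. In SAHA the same rule gave 4 of 6 genes, Stat3, Stat4, Stat5a and Stat6, where 38.4% of all scored genes did. With the 5 kb window alone the count was 1 of 6 in each condition, Stat3, beside 6.39% of scored genes in diluent and 18.3% in SAHA. In SAHA, 3 of the 4 genes thus rest on the authors' assignment of a region more than 10 kb from the start.

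Stat3 encodes the factor that was immunoprecipitated. In diluent its promoter region ran from chr11:100800542-100801678 (mm9), 1137 bp across the start at chromosome 11 position 100800825 on the minus strand, and in SAHA from chr11:100800644-100801609, 966 bp. The score in the authors' deposited table, which is the authors' own value for a region and is used here only within one list, was 86.52 in diluent and ranked 20 of 3507. In SAHA the score in the authors' deposited table was 83.69 and ranked 73 of 8552. The call stood near the top of each list.

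The region was also called in each STAT3 library without a control, which gives tag counts. As called there it held 51 tags over 1035 bp in diluent, 2.04 counts per 1000000 filtered tags (CPM). In SAHA it held 37 tags over 966 bp, 2.08 CPM. The bounds differ between the 2 libraries, and in diluent also from those of the listed region. The ratio of SAHA to diluent was 1.02 with a 95% exact conditional binomial interval of 0.649 to 1.59, so at this depth a difference of up to about that size in either direction was not detectable. The 2 summits lay 47 bp apart. No IgG region was called within 10 kb of any start of the 6 genes, whereas 383 of the 844 diluent and 403 of the 784 SAHA regions called without a control overlapped an IgG region. In all, 35 of the diluent regions overlapped a SAHA region with neither over an IgG region, and 6 of those were also in both lists against IgG; the Stat3 promoter was one of the 6, with regions assigned to Sulf1, Mir26b, 4930525F21Rik, Rpl22 and AK016914.

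Within the Stat3 gene, the diluent list held a further STAT3 region at chr11:100792467-100793432, 966 bp long and between 7393 and 8358 bp downstream of the start. Its score in the authors' deposited table was 35.1, rank 1729, so it stood much lower in the list than the promoter region. No SAHA region was listed there. It lay wholly inside a H3K4me3 region in both conditions, as did the promoter regions.

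Stat6 encodes the factor that IL-4 activates. Its STAT3 region was listed in SAHA alone, at chr10:127068842-127069960, 1119 bp long and 10081 bp upstream of the start. The score in the authors' deposited table was 84.67 and ranked 68 of 8552, beside the Stat3 promoter in the same list. Unlike the Stat3 promoter, it had no tag count from a single-library region with the same bounds. The nearest H3K4me3 region in SAHA was 8895 bp away.

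Stat4 encodes the main STAT of IL-12 signalling. Its STAT3 region in SAHA, chr1:52078852-52079314, was 463 bp long and lay 13765 bp downstream of the start, inside the gene, with a score of 43.12 in the authors' deposited table (rank 1901). It met a H3K4me3 region that was likewise listed in SAHA alone, chr1:52079185-52079864, over 130 bp, or 28.1% of the STAT3 region. That H3K4me3 region held 30 tags over 680 bp in the single-library call, and no diluent region was called there.

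Stat5a and Stat5b encode the paralogous factors that GM-CSF activates. The region assigned to Stat5a in SAHA, chr11:100760565-100761081, 517 bp long with a score of 32.68 in the authors' deposited table (rank 5941), lay 38768 bp from the Stat5a start and in fact inside the Stat3 gene, 40.002 kb after the Stat3 start. The nearest H3K4me3 region in SAHA was 30597 bp away. Of the 3 genes added in SAHA, Stat5a is the one whose region scored below 40, and it is lost when the SAHA list is reduced to its 3507 highest regions. Stat5b had no STAT3 region by the rule. A SAHA region assigned to the transcript AK088966 lay inside the Stat5b gene 17.8 kb after its outer start, with a score of 35.15 in the authors' deposited table. It came within 10 kb of the inner start of Stat5b.

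Stat2, whose product joins the interferon-activated complex with IRF9, had no STAT3 region by the rule. The nearest one in SAHA lay 15.4 kb from its start and was assigned to Apon, and the nearest in diluent lay 84.6 kb away and was assigned to Rbms2.

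**Figure D1:**
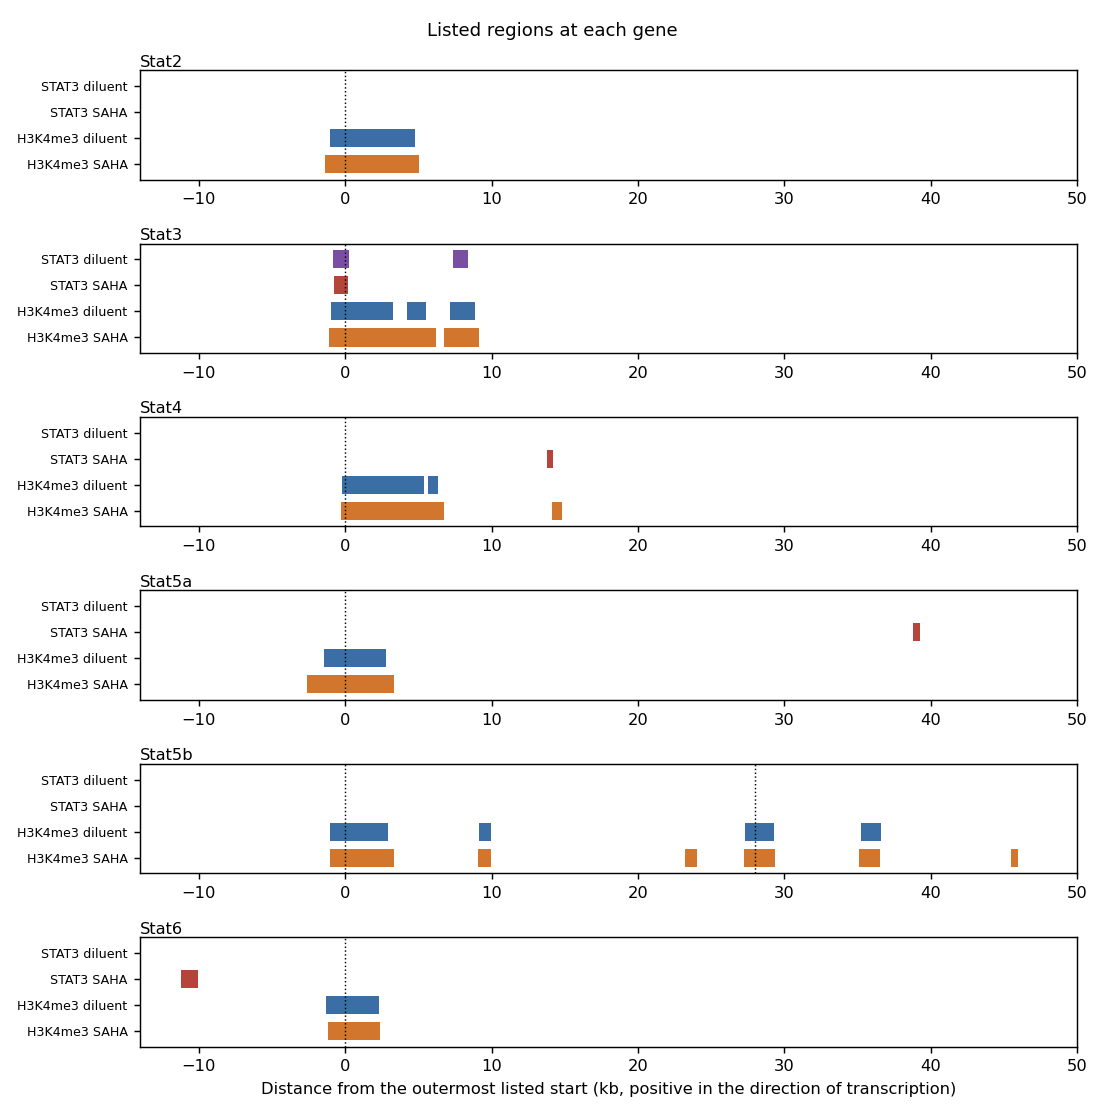
Regions of the 4 lists assigned to each gene by the rule, drawn at their distance in kb from the outermost listed start, with 1 track per list and dotted lines at starts that carry a H3K4me3 promoter region. STAT3 regions lie over a start only at Stat3, those of Stat4, Stat5a and Stat6 stand more than 10 kb away, and regions separated by a few bases at Stat2 and Stat4 look joined at this scale.

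Of the 6 genes, 3 lie close together. Stat5b and Stat5a start 9.898 kb apart and are transcribed away from each other, and the ends of Stat5a and Stat3 lie 1.64 kb apart, so that Stat5b, Stat5a and Stat3 follow one another on chromosome 11. Stat6 and Stat2 start 627.59 kb apart on chromosome 10, and Stat4 is on chromosome 1. The authors' column names 1 gene per region, and for the Stat5a region above that name is the neighbour of the gene that holds it.

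**Figure D2:**
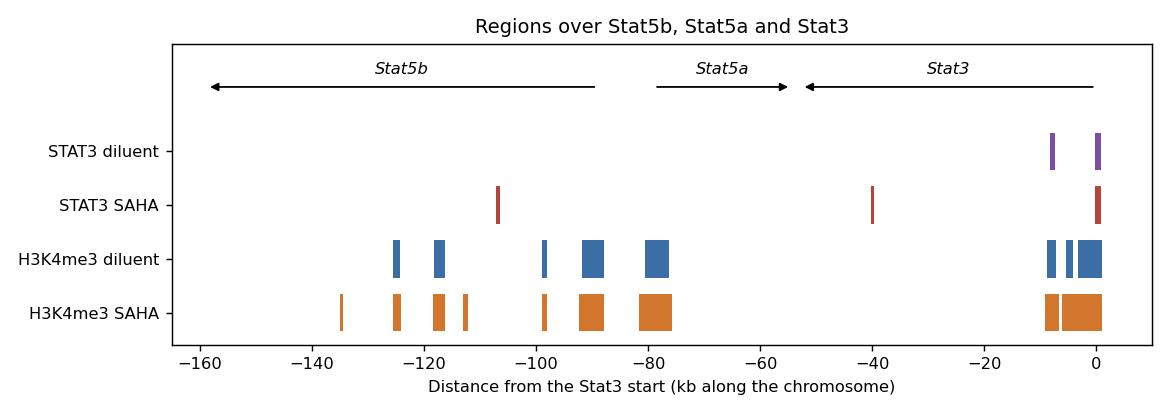
STAT3 and H3K4me3 regions of the 4 lists over Stat5b, Stat5a and Stat3, with distance from the Stat3 start in kb along the chromosome and arrows in the direction of transcription; short STAT3 regions are drawn at a minimum width. In SAHA the region assigned to Stat5a lies inside Stat3, 40.002 kb from its start, and the region assigned to AK088966 lies inside Stat5b.

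All 6 genes carried H3K4me3 within 5 kb of a start in both conditions, where 84.2% of scored genes did in diluent and 85.2% in SAHA. Stat5b had 2 starts with a region of their own, an outer one at chr11 position 100711899 (the long form) and an inner one at 100683884 (the short form), 28.015 kb apart, which makes 7 promoters. In the lists these promoter regions, other than that of the short Stat5b start, all had the score 3100 in the authors' deposited table, which many regions share, so the single-library tag counts are used below. Each count was scaled to the library's filtered tags, and each ratio carries a 95% exact conditional binomial interval that covers counting error alone; tags are sequenced fragments without molecular identifiers.

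The STAT gene promoters were mostly broad. In diluent the 7 widths ran from 2026 to 5566 bp with a median of 4233 bp, against a median of 2375 bp over 11257 promoters whose region in one condition overlapped a single region in the other. In SAHA the median was 5851 bp against 2509 bp. Stat4 was the broadest in diluent, wider than 96.6% of promoters, followed by Stat2 (94.3%), Stat5a (89.9%), Stat3 (89.7%), the long Stat5b start (86.7%) and Stat6 (83.0%). The short Stat5b start was wider than 34.5%.

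Tag counts put the promoters in another order. Stat2 held the most, 3107 tags in diluent or 138.6 CPM, more than 98.1% of promoters, and Stat3 (2581 tags) and Stat6 (2346 tags) followed. Stat4 held 1753 tags, Stat5a 1321, the long Stat5b start 1058 and the short one 461. No 2 neighbours in this order had overlapping 95% Poisson intervals in diluent, which cover counting error only. Per kb of called region the 3 densest were Stat6 at 28.9 CPM per kb, Stat2 at 28.0 and Stat3 at 27.2. The other 4 promoters lay between 10.15 and 14.05, so Stat4 was the broadest region but not a dense one.

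Each tag count covers the region as called in its own library, so a ratio of tags does not compare the same bases where the widths differ. On that basis 5 of the 7 promoters had more tags in SAHA and 2 had fewer, with a median log2 ratio of 0.12 against -0.04 over all 11257 promoters. Per kb of called region 2 were higher and 5 lower, with a median of -0.08, so the direction depends on the extent called. Of the 7 intervals, 5 lay above 0, where 22.5% of all promoters did, 1 lay below 0, where 30.1% did, and 1 held 0. Intervals narrow as tags rise, and all but the short Stat5b start held more tags in diluent than the median promoter, which held 910. These shares therefore compare promoters of unlike depth. None of the 7 reached a 1.5-fold ratio in either direction, where 7.46% of promoters were at least 1.5-fold higher in SAHA and 2.26% at least 1.5-fold lower. All of these intervals compare 2 libraries over regions called separately in each, and the spread between replicate libraries is unknown.

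The 2 outer STAT5 promoters showed the highest ratios. Tags over the long Stat5b start numbered 1058 in diluent and 1398 in SAHA, or 47.2 and 65.2 CPM, a log2 ratio of 0.47 with an interval of 0.35 to 0.58. Tags over the Stat5a start numbered 1321 and 1671, or 58.9 and 78.0 CPM, a log2 ratio of 0.40 (0.30 to 0.51), over regions of 4248 and 5938 bp, which per kb was -0.08. These ratios were above those of 90.2% and 88.6% of promoters. At the short Stat5b start the counts were 461 and 397, or 20.6 and 18.5 CPM, and the log2 ratio was -0.15 with an interval of -0.35 to 0.05. The 2 starts of Stat5b therefore had ratios whose counting intervals did not overlap.

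Stat2, Stat3 and Stat4 gave smaller ratios. Stat4 had 1753 tags in diluent and 1847 in SAHA, a log2 ratio of 0.14 (0.05 to 0.24). Stat3 had 2581 tags over 4233 bp and 2676 over 7265 bp, a log2 ratio of 0.12 (0.04 to 0.20) that was -0.66 per kb. The SAHA count includes a stretch that the diluent list holds as a second region and the diluent count leaves out. Stat2 had 3107 tags over 4944 bp and 3176 over 6423 bp, a log2 ratio of 0.10 (0.03 to 0.17) that was -0.28 per kb. These 3 ratios lay above those of 70.3% to 74.9% of promoters, inside the range of most genes. Stat6 differed from them in sign: its 2346 tags in diluent and 2079 in SAHA gave a log2 ratio of -0.11 (-0.19 to -0.02), above 35.5% of promoters.

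**Figure D3:**
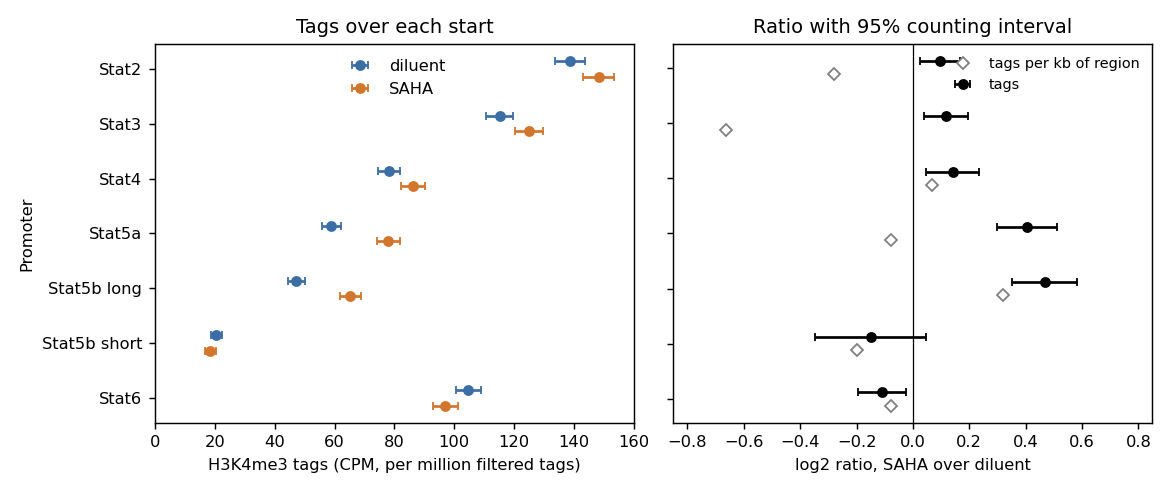
Left, H3K4me3 tags over each of the 7 promoters in diluent (blue) and SAHA (orange), in CPM, with 95% Poisson intervals. Right, the log2 ratio of tags, SAHA over diluent, with its 95% counting interval (filled circles) and the log2 ratio per kb of called region (open diamonds); the long Stat5b start has the highest ratio, 0.47, and at Stat2, Stat3 and Stat5a the 2 measures differ in sign.

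The called regions differed in width as well as in tags, and Stat3 stood out. Its promoter region was 4233 bp in diluent and 7265 bp in SAHA, a ratio of 1.72 that exceeded 97.9% of promoters, and it was the 1 of 7 to reach 1.5-fold, where 4.18% of all promoters were that much wider in SAHA. Almost all of the added length lay downstream: the region reached 2935 bp farther into the gene and 97 bp farther upstream. In the diluent list a separate H3K4me3 region, chr11:100795323-100796620, stood in that stretch with a score of 67.39 in the authors' deposited table, and in SAHA a single region covered both. The width ratio at Stat3 thus includes the joining of 2 regions that were called apart in diluent.

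Stat2 showed the same arrangement on a smaller scale. Its region was 4944 bp in diluent and 6423 bp in SAHA, with 1107 bp added downstream and 372 bp upstream, and the SAHA region took in a second diluent region of 795 bp at chr10:127711590-127712384. Stat5a went from 4248 to 5938 bp, with more of the added length upstream (1105 bp) than downstream (585 bp), on the side that faces Stat5b. Stat4 (5566 and 5851 bp), the long Stat5b start (3916 and 4335 bp) and the short one (2026 and 2097 bp) differed less. Stat6 was the 1 promoter that was narrower in SAHA, 3625 against 3550 bp.

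The density of tags, their number per kb of called region, gave another picture than the number itself. On this scale 5 of the 7 log2 ratios were below 0 and 2 above, with a median of -0.08 against -0.12 over all promoters. Stat3 stood at -0.66 on this scale and Stat2 at -0.28, although both had more tags in SAHA. Stat5a stood at -0.08, Stat6 at -0.08 and the short Stat5b start at -0.20. The long Stat5b start, at 0.32, and Stat4, at 0.07, were above 0, so the long Stat5b start was the only promoter with a log2 ratio above 0.3 both in tags and in density.

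**Figure D4:**
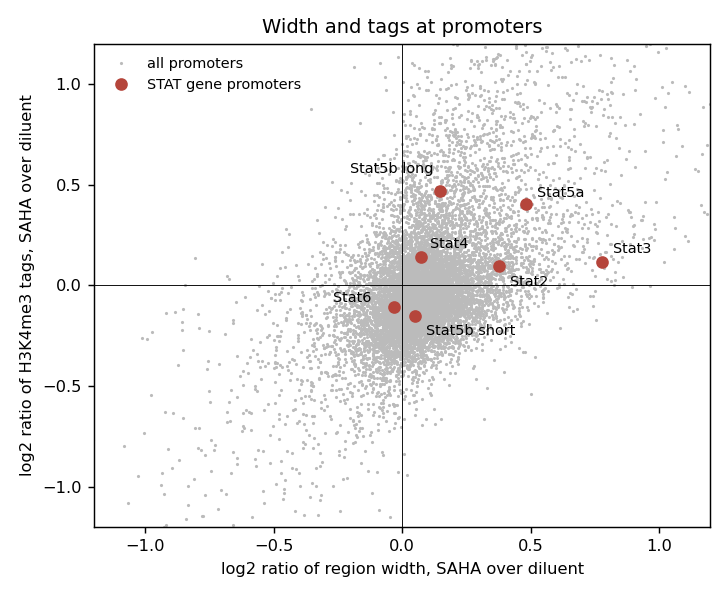
Each grey point is 1 of 11257 promoters, by the log2 ratio of H3K4me3 region width (x axis) and of tags (y axis), SAHA over diluent; the 7 STAT gene promoters are in red, and 270 promoters lie outside the plotted range. Stat3 lies far to the right with a tag ratio near those of Stat2 and Stat4, and Stat5a and the long Stat5b start lie highest.

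Summits stayed downstream of the start in both conditions. They lay 284 bp (diluent) and 279 bp (SAHA) downstream at Stat2, 410 and 367 bp at Stat3, and 838 and 789 bp at Stat4. At Stat5a they lay 373 and 317 bp downstream, at the long Stat5b start 751 and 737 bp, and at the short one 195 and 203 bp. At Stat6 the summit lay 199 bp downstream in diluent and 527 bp in SAHA, the one position of the 7 that differed by more than 100 bp.

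Further H3K4me3 regions lay inside the genes, away from the starts. In Stat3 the region that surrounds the second STAT3 region of the diluent library, chr11:100791964-100793670, held 217 tags over 1707 bp in diluent and 285 tags over 2400 bp in SAHA, a log2 ratio of 0.46 (0.20 to 0.72) that was -0.03 per kb. STAT3 was listed there in diluent and not in SAHA, and the H3K4me3 tags over the 966 bp of the STAT3 region itself were not counted here. Stat4 had a second listed region near chr1:52070758-52071446 of 689 bp in diluent and 1190 bp in SAHA. Its score in the authors' deposited table ranked 20128 of 22255 in diluent (78.96) and 16057 of 25723 in SAHA (369.52). Scores of different lists are not compared here, and no single-library region was called there in either condition to give a tag count.

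Stat5b, with 10 regions in all lists, had the most. An internal region at chr11:100675265-100676628 held 155 tags in diluent and 124 in SAHA, a log2 ratio of -0.26 (-0.61 to 0.09). Another, at chr11:100701924-100702732, held 38 and 59 tags, a log2 ratio of 0.70 (0.09 to 1.33). The SAHA list had a further 2 that the diluent list lacked, chr11:100665954-100666443 with 21 tags over 490 bp and chr11:100687899-100688661, 763 bp long and assigned to AK088966. Stat2 had 3 regions in all lists, Stat5a 3, Stat6 3, Stat4 6 and Stat3 8.

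The other genes of the JAK-STAT pathway gave a background for these values. Of 47 receptors, kinases, inhibitors and partners, 45 were scored. All 45 carried H3K4me3 within 5 kb in both conditions, though a gene without any listed region was not scored. STAT3 lay within 5 kb of 5 of them in diluent and 9 in SAHA, where 6.39% and 18.3% of all genes had such a region. By the gene column or the window the counts were 11 and 20, or 24.4% and 44.4%, beside 17.1% and 38.4% of all genes. The 39 with a promoter pair had a median log2 tag ratio of 0.02, with 21 higher and 18 lower in SAHA and 0 past 1.5-fold, and per kb of called region the median was -0.12. Cish, at 0.5848, lay just under the 1.5-fold limit, so the count of 0 depends on the scaling. The median width of the 39 in diluent was 3336 bp, between the 2375 bp of all promoters and the 4233 bp of the STAT genes. The 1 of the 39 whose region was at least 1.5-fold wider in SAHA was Socs3, the feedback inhibitor of STAT3 signalling, with 1502 tags in diluent and 2032 in SAHA (log2 ratio 0.50, interval 0.40 to 0.60, and -0.13 per kb).

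By role, STAT3 lay within 5 kb of 3 of the 21 scored receptors in diluent and 2 in SAHA, and the 16 receptors with a promoter pair had a median log2 tag ratio of 0.11. The highest was Il27ra, a subunit of the IL-27 receptor, with 182 tags in diluent and 240 in SAHA (0.46), and the lowest was Lifr, the LIF receptor, with 426 and 300 (-0.44). Of the 4 kinases, STAT3 lay near 0 in diluent and 1 in SAHA, Jak3, and their median was 0.04. Jak2, the kinase of the GM-CSF receptor, had 5031 and 5527 tags (0.20), and Jak1 had 1202 and 1163 (0.02 after scaling).

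Among 15 scored inhibitors STAT3 lay near 1 in diluent and 4 in SAHA, and the 14 with a promoter pair had a median of 0.01. Cish, an inhibitor that STAT5 induces, was the highest of the whole pathway list, with 1940 tags in diluent and 2781 in SAHA (0.58, interval 0.50 to 0.67, and 0.25 per kb). Ptpn2, a phosphatase of JAK and STAT proteins, was the lowest of the inhibitors, with 1531 and 1140 (-0.36). The 5 partners had a median of -0.23, from Ep300, a histone acetyltransferase, with 3089 and 2219 tags (-0.41, and -0.06 per kb), to Irf9, the partner of STAT2, with 1721 and 1672 (0.02, and -0.47 per kb). STAT3 lay near 1 partner in diluent and 2 in SAHA.

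Each STAT promoter was also matched to the promoter most like it in tags and width in both libraries, by Euclidean distance over the 4 log2 values among 10546 genes. The nearest to Stat2 was Oasl2, with 3189 tags in diluent and 3064 in SAHA, and the nearest to Stat3 was Pip4k2a, whose region was 4575 bp in diluent and 7212 bp in SAHA. For Stat4 it was Slc38a2 (1760 and 1915 tags) and for Stat6 Arhgdia (2422 and 2034 tags). For Stat5a it was P2ry14 (1297 and 1674 tags), for the long Stat5b start Sept9 (1085 and 1509 tags), and for the short one Ets1 (441 and 382 tags).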

How the data were processed

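The submitters' processing notes name BWA for alignment, with no version, and the mm9 build. The authors called single-library regions with MACS 1.4.0rc2, no control, a p-value limit of 1e-05 and at most 2 duplicate tags per position, per the file headers. Their deposited tables give a tag count and a fold enrichment (a ratio to local background, not compared here) per region. The deposited lists against IgG give the authors' score and 1 gene per region; how they were called, and the lowest scores of 30 (STAT3) and 50 (H3K4me3), has no explanation in the labels or headers. FastQC 0.9 tables gave read totals.

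Starts in the lists were converted to 1-based positions. Promoter pairs were single-library H3K4me3 regions that overlapped 1 to 1 by at least 1 bp and lay nearest a coding start within 5 kb; each ratio was scaled to filtered tags. With 1 library per group no p-value between conditions was computed. The pathway genes named are the highest and lowest ratio of each role; other genes named were chosen after their values were seen. Members and lists were chosen with earlier results of these data known. Exon and intron annotation was not analysed here. Interval code was tested on simulated data. Alternatives varied the window, the score limit, the number of regions, the IgG overlap, the scaling and the width. The software was scipy 1.17.1, numpy 2.4.6 and pandas 2.3.3 under Python 3.11.15, with matplotlib 3.10.9.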

Additional observations from a re-analysis of the deposited data

How the results depend on the processing

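With 1 library per group the spread between replicates is unknown, and STAT3 tags, 51 and 37 at Stat3, limit what can be seen. Within 10 kb of the starts of these genes, Stat3 had the only STAT3 regions called without a control. Tag counts for STAT3 regions farther out are not given here. No paired analysis was possible because each group holds 1 library. Stat3 was the 1 gene with a STAT3 region in diluent under every alternative, but the outcome of some was fixed. No listed region of these genes overlapped an IgG region, and the Stat3 promoter region scored 86.52 in the authors' deposited table. Equal numbers of regions left the diluent list whole. In SAHA the 4 genes became 1 with a window of 1 kb alone, 1 with 5 kb alone (chosen after seeing the data) and 1 in the single-library table. With a window of 10 kb alone they became 2, Stat3 and Stat5b. These settings leave out the gene column, on which Stat4, Stat5a and Stat6 rest, so the change is not one of window size only. The 4 genes became 3 with a score of at least 40 or with equal numbers of regions. H3K4me3 regions in SAHA numbered 8 within 5 kb and 14 with the gene column or 5 kb. Per kb of called width the median log2 ratio of the 7 promoters changed sign, from 0.12 to -0.079, as did Stat2 (-0.28), Stat3 (-0.66) and Stat5a (-0.079), and 1 promoter, Stat3, passed 1.5-fold. Both measures rest on how far each library's region was called. Scaling to total reads shifted all ratios alike by 0.04. Summing all single-library regions within 5 kb gave the same values, since each start had 1 such region, and tests nothing.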

Other observations

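A search for the core of the interferon response element, TTTCNNTTTC on either strand, was added after the promoter sequences had been seen. Of 32851 promoter windows, 3.44% held it. Among the STAT genes it occurred at Stat2, as TTTCAGTTTC beginning 222 bases before the RefSeq start, just ahead of the STAT motif, and in a window of Stat4, as GAAAGTGAAA beginning 97 bases before that start. Whether either match lies in a listed region was not tested, because the windows and the regions are on different builds. The base composition of the windows also differed: G and C made up 82.7% of the outer Stat5b window and 47.3% of the inner one, 67.7% and 57.7% of the windows of Stat5a, 60.7% of Stat3, 59.3% of Stat2, 57.3% of Stat6, and 50.7% and 46% of those of Stat4, against a median of 52.7% over all windows.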
